A study of Mus musculus with 8 samples.

Results

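The resident macrophage scavenger and lectin genes described here were Cd163, Lyve1, Mrc1, Folr2, Cd209f, Cd209d, Cd209b, Cbr2, Fcna and Retnla, which were 10 of the 21755 genes named in the count tables. They were picked by name, partly for a rise in the macrophages of diabetic wounds on day 3, so every day 3 difference between the groups below is a description of what chose them and was not tested. All 10 were found in the tables.

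CD45+ cells, which are leukocytes carrying the pan-haematopoietic surface marker CD45, were sorted from full-thickness back wounds of 5 mm in male C57BL/6J mice (strain label C57BL/6) and profiled by single-cell RNA sequencing. The diabetic group had received streptozotocin (STZ), a toxin of the insulin-producing beta cell, at 120 mg/kg at 4 weeks of age and had reached a blood glucose of at least 16.5 mmol/L; the control group carried the same wounds without induced diabetes. The 8 libraries covered days 1, 3, 5 and 7 after wounding in each group, each made from the mixed wounds of 5 mice. There was thus 1 library for each group and day, no replicate of any of them, and no way to tell the variation between mice from that between groups.

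Tissue-resident macrophages of the dermis are scavengers: they sit along vessels and connective tissue fibres and take up haemoglobin complexes, hyaluronan, glycoproteins with exposed mannose and microbial sugars through dedicated receptors, several of which are C-type lectins. After skin injury, monocytes enter from the blood and turn into wound macrophages that carry little of this receptor set at first. Mrc1 and Retnla are also known as genes that macrophages raise in response to IL-4.

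Between 19236522 and 33842509 UMIs (unique molecular identifiers, one per captured transcript) were counted in a library. After removal of barcodes with 200 or fewer genes or with 20% or more of their UMIs mitochondrial, 35158 of 38959 barcodes remained as cells, from 3266 to 5436 a library, with a median of 2575 to 8234 UMIs per cell. The control day 5 library stood apart, since it lost 28.64% of its barcodes to this filter, against 1.0% to 10.77% in the others, and it was the deepest by cell, with a median of 8234 UMIs. Cells were clustered without the 10 genes, and 2 clusters were named macrophage-like from C1qa, C1qb, C1qc, Apoe, Adgre1, Csf1r, Ms4a7 and Pf4, none of which is in the set. Cells in these clusters numbered 66, 619, 183 and 936 in diabetic wounds (days 1, 3, 5 and 7 in turn) and 80, 531, 1417 and 2288 in control wounds. Day 1 values and that of diabetic day 5 therefore rest on few cells.

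Cd209d, Cd209b and Cd209f, which encode lectins of the DC-SIGN family, lie in a single cluster on mouse chromosome 8 with 4 relatives, in the order Cd209a, Cd209e, Cd209d, Cd209b, Cd209c, Cd209f and Cd209g (GENCODE vM21, GRCm38). Cd209d spans chr8:3871824-3878555, Cd209b chr8:3917655-3926844 and Cd209f chr8:4102787-4105835, all on the minus strand. Of the 31-base words of Cd209f transcripts, 36.33% also occurred in Cd209g, so that counts of these 2 genes could be split or swapped by read assignment; no word of Cd209d or Cd209b was shared with another gene. Cd163 spans chr6:124304656-124330527 and Retnla chr16:48842551-48844461, both on the plus strand, and 5.448% of the Retnla words were shared with Retnlg. Lyve1 spans chr7:110850607-110863239 (minus), Mrc1 chr2:14229392-14332057 (plus, with Mir511 inside it), Folr2 chr7:101839988-101857194 (minus, overlapping Gm10602 and Gm45319), Cbr2 chr11:120729489-120732114 (minus) and Fcna chr2:25624666-25628030 (minus, overlapping its antisense gene Fcnaos). Of the Cbr2 words, 14.97% were shared with Gm11771. The RefSeq promoter table (GRCm38.p6) matched 9 of the 10 genes, all but Lyve1. The 250 bases before the start of 4 of them are shown, for the neighbouring lectins whose levels differed most between the groups on day 3, for the haemoglobin receptor Cd163 and for the gene with the most motif matches, Retnla. They were read 5′ to 3′ on the strand of the gene, at chr8:3878500-3878749 (minus) for Cd209d, chr8:3926842-3927091 (minus) for Cd209b, chr6:124304401-124304650 (plus) for Cd163 and chr16:48842359-48842608 (plus) for Retnla. Capitals mark matches, on either strand, to a PU.1 core (GGAAGT), a MAF element core (TGCTGAC), a STAT6 site (TTC and GAA with 4 free bases between them), a C/EBP site (TTGCNNAA) or a TATA box (TATAAA).
Cd209d: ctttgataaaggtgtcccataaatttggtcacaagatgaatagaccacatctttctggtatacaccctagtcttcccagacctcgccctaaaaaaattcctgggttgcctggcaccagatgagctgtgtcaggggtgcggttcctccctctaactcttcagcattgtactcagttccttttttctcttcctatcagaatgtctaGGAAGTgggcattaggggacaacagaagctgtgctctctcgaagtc
Cd209b: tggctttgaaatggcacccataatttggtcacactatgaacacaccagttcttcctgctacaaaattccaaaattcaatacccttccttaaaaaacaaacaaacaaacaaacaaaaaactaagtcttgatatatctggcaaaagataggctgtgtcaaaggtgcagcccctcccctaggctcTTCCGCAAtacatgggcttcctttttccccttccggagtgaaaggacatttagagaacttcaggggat
Cd163: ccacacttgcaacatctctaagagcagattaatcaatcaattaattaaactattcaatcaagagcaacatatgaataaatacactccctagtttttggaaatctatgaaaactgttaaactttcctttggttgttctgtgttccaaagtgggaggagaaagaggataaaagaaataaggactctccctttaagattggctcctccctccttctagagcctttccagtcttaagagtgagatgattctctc
Retnla: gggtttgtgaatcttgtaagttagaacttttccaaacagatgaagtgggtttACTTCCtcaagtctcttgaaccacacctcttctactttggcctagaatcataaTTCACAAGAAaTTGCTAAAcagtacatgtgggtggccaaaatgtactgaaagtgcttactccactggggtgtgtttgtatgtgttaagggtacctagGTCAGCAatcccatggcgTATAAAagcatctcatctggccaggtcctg
The Retnla window held all 5 motifs, with the TATA box at -30 and the STAT6 match at -145 from the start, and the C/EBP match at -134 followed it without overlap. The Cd209d window held a PU.1 core at -46, the Cd209b window a C/EBP match at -68, and the Cd163 window none of the 5. The PU.1 core was in 5 of the 9 windows and in 19.99% of all 27025 promoters of this length, the MAF core in 2 and 3.722%, the STAT6 site in 1 and 5.865%, the C/EBP site in 2 and 9.554%, and the TATA box in 2 and 12.97%. In a pairwise alignment the Cd209d and Cd209b windows were 59.3% identical, whereas Cd209f had 52.41% with Cd209d and 47.96% with Cd209b, within the 47.9% to 54.23% of the 33 pairs of genes from different families.

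The set was read mostly from macrophages. Macrophage-like cells held 65.04% of the 202753 UMIs of the 10 genes (exact binomial 95% interval 64.83% to 65.24%) and 28.57% of all UMIs. Monocyte-like cells held a further 14.92% and neutrophil-like cells 7.099%. Lyve1, a hyaluronan receptor shared with lymphatic endothelium, and Cd209f had the highest shares in macrophage-like cells with the libraries pooled, 83.6% and 86.59%, of which control day 5 supplied the most UMIs. The shares differed between libraries, and in diabetic day 1 only 7 of 19 Cd209f UMIs and in diabetic day 5 only 30 of 69 Lyve1 UMIs were in that class. Mrc1, the mannose receptor, was the broadest of those with most UMIs in that class, at 62.53%. Cd209d differed, with 40.09% in macrophage-like and 43.85% in dendritic-like cells. The share of the set in macrophage-like cells ran from 12.73% in diabetic day 1, where monocyte-like cells held 72.41%, to 81.71% in control day 7. Lymphatic endothelial genes were near absent from the macrophage-like cells: Prox1, Flt4, Ccl21a and Mmrn1 together had 0 UMIs in the 4 diabetic libraries and 0 to 6 in the control libraries.

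**Figure D1:**
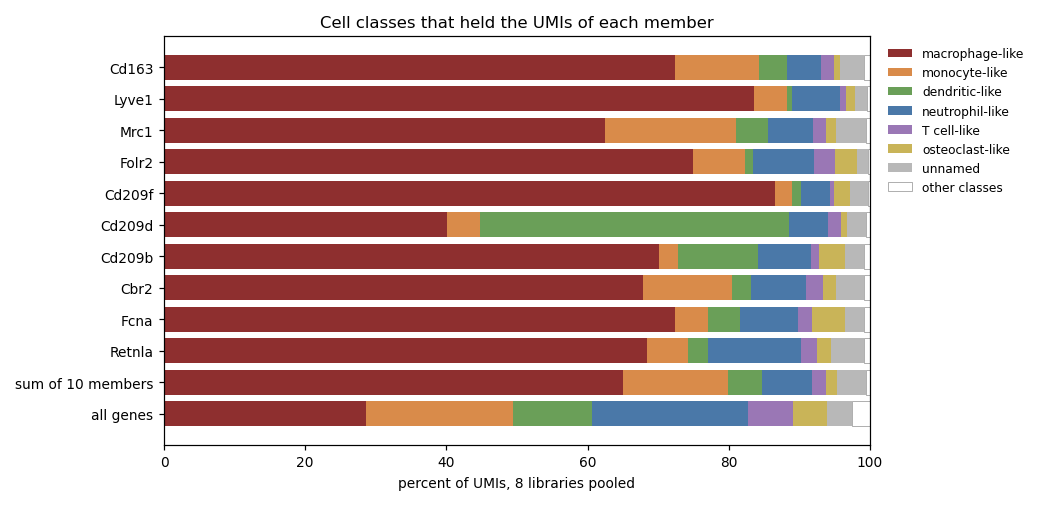
Percent of the UMIs of each gene, of the 10 together and of all genes held by each cell class, the 8 libraries pooled. Macrophage-like cells (dark red) held the largest part of every gene but Cd209d, where dendritic-like cells (green) held 43.85% against 40.09%.

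Cd163, the receptor for haemoglobin bound to haptoglobin, was high in the macrophage-like cells of both day 1 libraries and of diabetic day 3. Its levels were 663, 497, 138 and 409 CPM (the gene's UMIs per 1000000 UMIs of the cells summed) in the diabetic group on days 1, 3, 5 and 7, and 505, 54.4, 185 and 136 in the control group. The control group thus fell to its lowest level on day 3, where the diabetic group did not, and the groups overlapped over the 4 days. The ratio of diabetic to control was 1.31, 9.13, 0.744 and 3.002 on the 4 days, with an exact 95% interval of 7.98 to 10.5 on day 3. All intervals here cover counting error alone, since the UMIs of a gene sat in few cells and mice were pooled.

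Lyve1 was highest on day 1 and lower afterwards in both groups. It stood at 377, 86.0, 19.3 and 30.2 CPM in the diabetic group and at 248, 14.8, 92.5 and 33.6 in the control group. The ratio was 1.52, 5.80 (4.44 to 7.68), 0.208 and 0.898, so the order of the groups turned between day 3 and day 5. Mrc1, which takes up mannosylated glycoproteins, had the narrowest range over the 8 libraries (2.13-fold, with 2.39-fold for Folr2): 2058, 1288, 1027 and 1633 CPM in the diabetic group, against 2152, 1010.0, 1511 and 1400.0 in the control group. Its ratio on day 3 was 1.27 (1.23 to 1.33), and 0.957, 0.679 and 1.17 on the other days. Folr2, the folate receptor beta of macrophages, was at 5.79 to 9.77 CPM in the diabetic and 6.59 to 13.8 in the control group, from 2 to 221 UMIs a library. Its day 3 ratio was 1.48, with a counting interval of 0.910 to 2.45.

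Of the lectins of the Cd209 cluster, Cd209b had the widest range of the 10 genes over the 8 libraries, 52.1-fold from lowest to highest, with 20.3-fold for Cd209d and 12.2-fold for Cd209f against 44.9-fold for Retnla. Cd209d stood at 55.2, 115, 36.6 and 24.9 CPM in the diabetic group and at 110, 5.65, 39.1 and 11.1 in the control group. Control day 3 was the lowest and diabetic day 3 the highest of the 8 libraries, a ratio of 20.3 (13.5 to 31.95) from 564 and 24 UMIs. Cd209b, which encodes SIGNR1, a lectin that binds microbial polysaccharides, stood at 46.0, 28.9, 3.21 and 15.4 in the diabetic and at 35.2, 2.12, 18.5 and 0.884 in the control group. Its ratio was 13.6 (6.98 to 30.4) on day 3 and 17.4 (10.4 to 30.99) on day 7, with 9 and 17 UMIs in the control libraries of those days. Cd209f was at 21.5, 38.2, 24.4 and 9.35 in the diabetic and at 114, 10.6, 62.9 and 12.0 in the control group. Its ratio was below 1 on days 1, 5 and 7 (0.189, 0.388 and 0.778) and 3.61 on day 3.

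Of the secreted and enzymatic products, Cbr2 (a carbonyl reductase used as a marker of resident macrophages) was at 730, 498, 246 and 282 CPM in the diabetic group and at 1016, 287, 446 and 377 in the control group. It was lower in the diabetic library on days 1, 5 and 7 (ratios 0.719, 0.552 and 0.749) and higher on day 3 (1.74, 1.62 to 1.86). Fcna, the ficolin A lectin that starts complement activation, was at 30.7, 40.9, 18.6 and 31.9 in the diabetic and 60.0, 17.2, 81.9 and 30.8 in the control group. Retnla, a secreted protein induced by IL-4, was at 85.9, 68.8, 9.64 and 324 in the diabetic and 205, 22.8, 433 and 149 in the control group. Its day 5 ratio of 0.0223 (0.0125 to 0.0368) was the furthest from 1 of any gene and day, set by 15 UMIs in 183 diabetic cells and 6914 UMIs in 1417 control cells. Levels were not compared between genes, since capture and gene models differ between them.

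**Figure D2:**
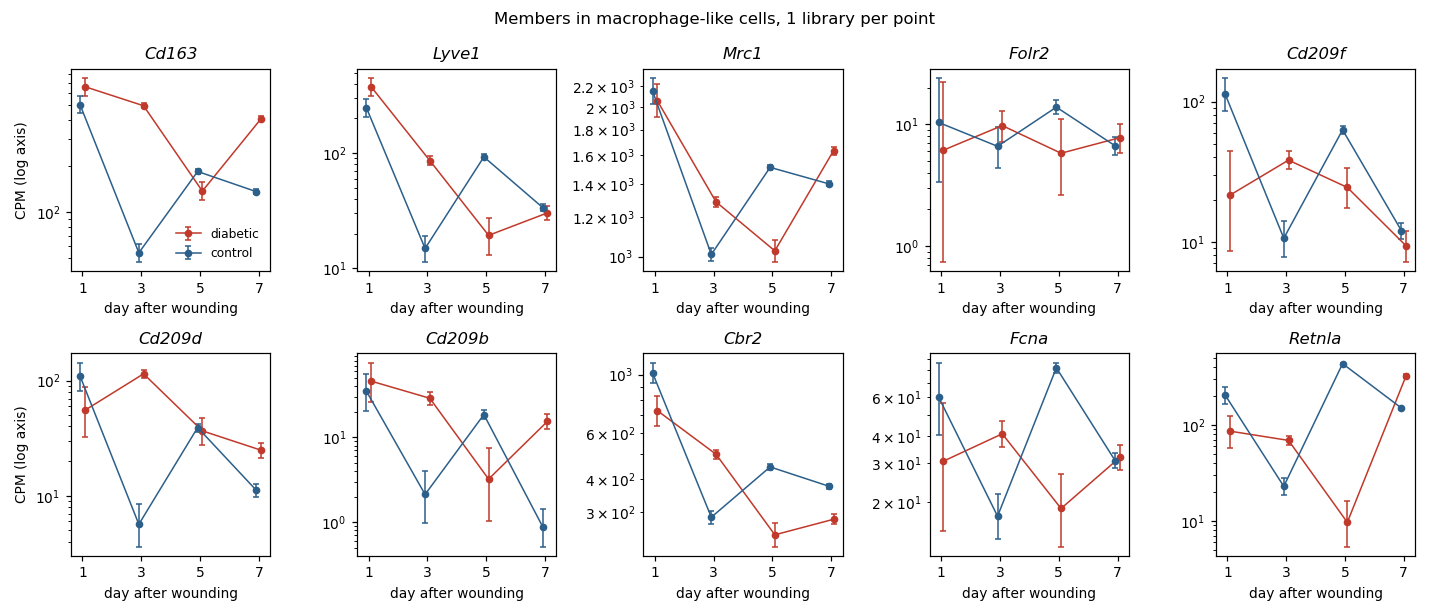
CPM of each gene (log axis) in macrophage-like cells by day after wounding, diabetic libraries in red and control libraries in blue, 1 library per point. Bars are exact 95% counting intervals; control day 3 is the lowest control library for Cd163, Lyve1, Mrc1, Cd209f, Cd209d, Cbr2, Fcna, Folr2 and Retnla, and the second lowest for Cd209b.

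On day 3 all 10 genes had a ratio above 1 and 7 were at least 2-fold higher in the diabetic library, namely Cd163, Lyve1, Cd209f, Cd209d, Cd209b, Fcna and Retnla; among the 10077 genes with at least 20 UMIs in the 2 libraries together, 4.39% were. None was at least 2-fold lower, against 2.95% of the genes. Just inside the 2-fold mark lay Fcna at 2.38 and just outside it Cbr2 at 1.74. The median log2 ratio was 1.71 over the 10 genes and -0.01 over all genes, and the summed level was 2671 against 1432 CPM, a ratio of 1.87 (1.81 to 1.92). Without Mrc1, which supplied most of the UMIs, the ratio of the sum was 3.28. Ranked by this ratio with 0.5 UMI added to each sum, Cd209d was number 10 of the 10077 genes, Cd209b number 20, Cd163 number 30 and Lyve1 number 64. Since the set was picked partly on this contrast, nothing is read from these counts.

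On the other days the groups stood in another order. On day 5, 6 of the 10 were at least 2-fold lower in the diabetic library (Lyve1, Folr2, Cd209f, Cd209b, Fcna and Retnla), with 7.51% of 11054 genes, and none was 2-fold higher, with 5.27%. The summed level was 1528 against 2884 CPM, a ratio of 0.530 (0.508 to 0.552), and each of the 10 ratios was below 1. In T cell-like cells of the same libraries the sum was at 70.88 against 809.1 CPM (ratio 0.0876, 0.0737 to 0.1036). The part of RNA from outside the cells in the day 5 difference was not tested. The control library of this contrast was the one that lost 28.64% of its barcodes to the filter. On day 7, 4 of the 10 were at least 2-fold higher (Cd163, Cd209d, Cd209b and Retnla), with 3.66% of 11959 genes, and none was 2-fold lower, with 3.34%. On day 1, 9 genes reached 20 UMIs, of which none was 2-fold higher (6.1% of 5036 genes) and Cd209f and Retnla were 2-fold lower (6.75%). The ratio of the sum was 1.28 (1.26 to 1.30) on day 7 and 0.914 (0.853 to 0.980) on day 1. The day 1 ratio passed to the other side of 1, at 1.02 to 1.27, under 4 other ways of choosing the cells. In T cell-like cells on day 7 Cd163 was at 68.93 against 18.85 CPM (ratio 3.657, 2.652 to 5.139). Cd209d had a ratio of 2.674 there (1.343 to 5.79), and Cd209b had 7 and 0 UMIs. The Retnla interval there included 1 (ratio 1.24, 0.9815 to 1.573), and the sum stood at 400.3 against 432.3 CPM (0.9259, 0.853 to 1.005). The part of RNA from outside the cells in the day 7 difference was not tested.

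**Figure D3:**
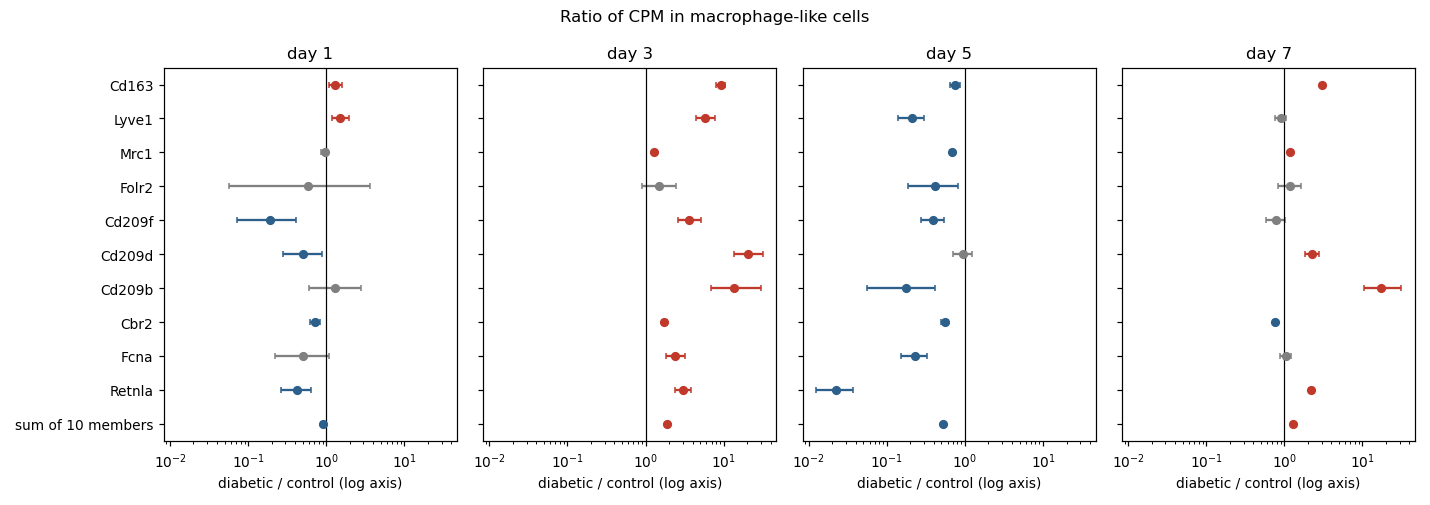
Ratio of diabetic to control CPM (log axis) in macrophage-like cells on each day, with exact 95% counting intervals; red marks an interval above 1, blue one below 1 and grey one that includes 1. On day 3, 9 genes lie above 1 with their intervals, and on day 5, 9 lie below 1 with theirs.

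The macrophage-like cells fell into 2 clusters that carried the set unequally. The first was led by Ccl8, Igf1, C4b and Gdf15 together with the heat shock genes Hspa1a and Hspa1b, and by Retnla, Cd163, Cbr2 and Lyve1 of the set itself. The second was led by Ms4a7, Gpnmb, Selenop, Fcrls, Pf4 and Trem2. Over the libraries in which both could be compared, the level in the Ccl8-led cluster was a median of 25.0 times that in the Ms4a7-led cluster for Cd209f (2 libraries), 19.98 times for Cd209d (4), 14.2 times for Lyve1 (6), 16.6 times for Retnla (7), 4.13 times for Cd163 (8) and 1.64 times for Mrc1 (8). It was 54.1 times for Cd209b (2), 7.69 times for Fcna (5), 3.24 times for Folr2 (4) and 2.83 times for Cbr2 (8). The order of the clusters was the same in every library compared for 7 of the genes, while the ratio ran from 0.41 to 4.83 for Folr2, from 0.65 to 4.94 for Cbr2 and from 0.96 to 1.85 for Mrc1. The Ccl8-led cluster held 200 of 619 diabetic and 165 of 531 control macrophage-like cells on day 3, and 906 of 936 and 2254 of 2288 on day 7. It held 28 of 66 and 28 of 80 on day 1, and 65 of 183 and 397 of 1417 on day 5. Day 7 thus stood apart from the other days in both groups, and a comparison of day 7 with them compares mostly different clusters.

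For Cd163, Lyve1 and Cd209d, which had some of the highest day 3 ratios of the set, the diabetic day 3 level was higher in each cluster taken singly. In the Ccl8-led cluster Cd163 was at 1389 CPM in diabetic and 201 in control day 3 (ratio 6.92, 5.83 to 8.27), Lyve1 at 336 and 70.1, and Cd209d at 544 and 26.1. In the Ms4a7-led cluster Cd163 was at 280.0 and 24.2 (ratio 11.6, 9.29 to 14.6), and Lyve1 at 25.3 and 3.41. Cd209d was there at 10.4 and 1.42, from 41 and 5 UMIs. For Cd209b, also among the highest day 3 ratios, the interval in the Ms4a7-led cluster included 1. Its ratio there was 2.08 (0.474 to 12.4), from 7 and 3 UMIs. On day 5 the control library had the higher level in both, with a ratio of the sum of 0.409 in the Ccl8-led and 0.599 in the Ms4a7-led cluster. In control day 5 the Ccl8-led cluster reached 2138 CPM of Retnla and 870.0 of Cd163, against 53.8 and 549.6 in diabetic day 5.

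**Figure D4:**
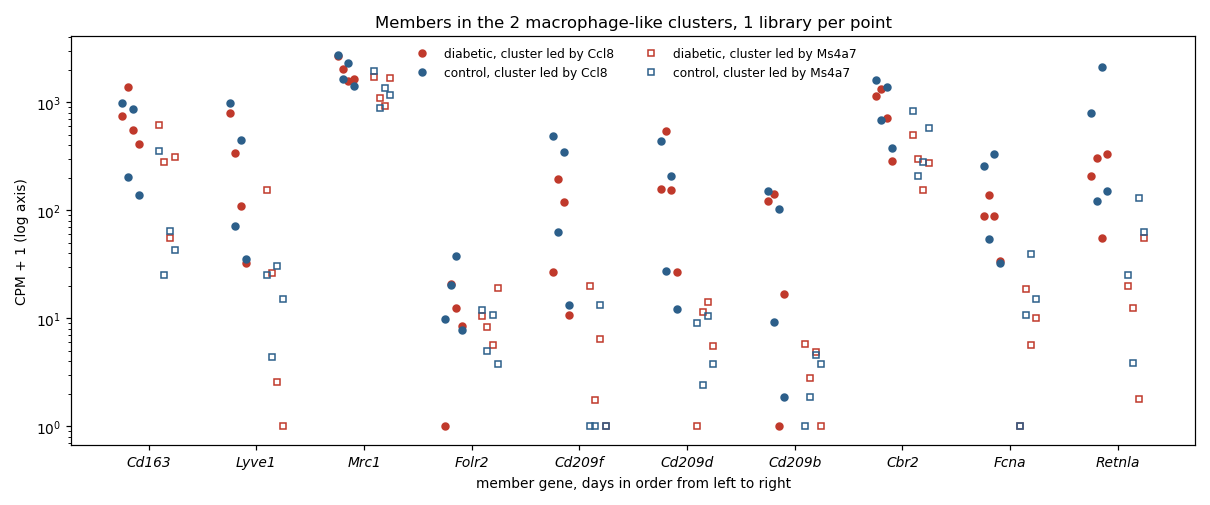
CPM (plus 1, log axis) of each gene in the macrophage-like cluster led by Ccl8 (filled circles) and that led by Ms4a7 (open squares), diabetic in red and control in blue, days 1, 3, 5 and 7 from left to right. Cd209f, Cd209d and Lyve1 lie mostly above 10 in the first cluster and mostly below 30 in the second.

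Cell by cell, more of the macrophage-like cells of diabetic than of control day 3 had Cd163 transcripts. After thinning each cell to 1000 UMIs, which left out 49 diabetic and 41 control macrophage-like cells on day 3, Cd163 was seen in 21.9% of 570 diabetic and 2.65% of 490 control cells; unthinned the shares were 40.2% and 9.23%, at median depths of 8042 and 8433 UMIs. In T cell-like cells of the same libraries, which should lack the gene, the thinned shares were 1.20% and 0% (0 of 237 cells, an exact upper limit of 1.54%), at median depths of 4018 and 4058 UMIs. Over all 8 libraries the thinned share of Cd163 was 20.4%, 21.9%, 7.36% and 15.8% in the diabetic and 28.3%, 2.65%, 11.2% and 7.75% in the control group, against 0% to 2.94% in T cell-like cells. Cd209d was seen in 7.72% of the diabetic and 0.408% of the control day 3 macrophage-like cells, and in 1.80% and 0% of T cell-like cells. The share for Mrc1 was 55.1% and 50.4%, against 10.8% and 4.22% in T cell-like cells. Folr2 was seen in 0% to 1.40% of thinned macrophage-like cells and in 0% to 0.202% of T cell-like cells, too few to order the libraries.

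In the 4 libraries with at least 20 thinned macrophage-like cells with Cd163, most of the other genes were seen in a higher share of those cells than of the cells without it. In diabetic day 3, Cd209d was seen in 20.8% of the 125 thinned macrophage-like cells with Cd163 (exact 95% interval 14.1% to 29.0%) and in 4.04% of the 445 without it (2.42% to 6.32%). Cd209b was seen in 9.6% and 0.899%, and Lyve1 in 16.8% and 4.04%. The shares of Retnla there, 1.6% and 2.25%, and of Folr2, 1.6% and 1.35%, had overlapping intervals, each with 2 of 125 cells. In control day 5 Retnla was seen in 24.5% of cells with Cd163 and 8.99% of those without. In control day 5, Lyve1 was seen in 32.9% and 3.56%, Cd209f in 21.9% and 1.62%, and Cbr2 in 72.3% and 23.4%. In control day 7 the shares were closer for Cd209d, at 1.70% (0.353% to 4.90%) and 0.859% (0.510% to 1.35%), and Cd209b was seen in 0 of 176 and 0 of 2095 cells. Cells with 3 or more of the 9 genes other than Mrc1 made up 10.2%, 8.77%, 3.07% and 3.95% of the macrophage-like cells of the diabetic libraries of days 1, 3, 5 and 7, and 16.7%, 1.22%, 7.91% and 1.72% of those of the control libraries. The lowest shares were not resolved from the next: control day 3 (6 of 490 cells, exact 95% interval 0.451% to 2.65%) overlapped control day 7 (1.22% to 2.34%), and diabetic day 5 (5 of 163 cells, 1.00% to 7.01%) overlapped diabetic day 7 (2.75% to 5.48%). These shares come from cells of single libraries and were not tested.

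A few cells held much of the rarer transcripts. In diabetic day 3 the 10 highest of 619 macrophage-like cells held 89.64% of the Retnla and 51.06% of the Cd209d UMIs. In control day 3, 16 of 24 Cd209d UMIs were in 1 cell, and in diabetic day 5, 28 of 38 Cd209f UMIs. In control day 7, 1 macrophage-like cell held 817 of 2873 Retnla UMIs, and in control day 5, 1 neutrophil-like cell held 720 of the 763 Retnla UMIs of its class. The Retnla level of 747 CPM in neutrophil-like cells of control day 5, above the 433 in macrophage-like cells, therefore rests on 1 cell. In the same library Lyve1 was at 95.9 CPM in neutrophil-like and 92.5 in macrophage-like cells, Cd209d at 46.0 and 39.1, and Fcna at 81.2 and 81.9. In control day 7 Retnla was at 165 and 149. The neutrophil-like level was the lower for every other gene and library.

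Genes of other cell types were also read in the macrophage-like cells. The 5 melanocyte genes Dct, Tyrp1, Mlana, Pmel and Tyr, looked at after Dct was seen to have the highest day 3 ratio of all genes, summed to 89.9 CPM in diabetic day 3, with all 5 detected, and to 0 to 1.35 in the other 7 libraries. Of these 442 UMIs, 431 were in 6 cells of the Ccl8-led cluster. With every cell that had such a UMI removed, the ratio of the sum of the 10 genes on day 3 was 1.86. The 8 neutrophil markers summed to 1259 to 3368 CPM in the diabetic and 300.1 to 2514 in the control libraries, and were higher in the diabetic library on day 3 (2272 against 1524) and on day 5 (1554 against 300.1). The 6 monocyte markers summed to 1321 to 1703 and 720 to 2003, with 1488 against 1857 on day 3. All markers of both lists were detected in every library. The 9 dendritic markers, which include the class II genes H2-Aa, H2-Ab1 and H2-Eb1 that macrophages also express, summed to 3951 to 16200.0 CPM in the diabetic and 3002 to 10580.0 in the control libraries, with 7016 against 9362 on day 3 and the highest values on day 7, where Cd209d was 2-fold higher in the diabetic library. The 5 fibroblast markers summed to 29.7 to 283 and 22.8 to 584, again highest on day 7, and were at 29.7 against 55.1 on day 3. The osteoclast list reached 1054 in control day 5, and each other list of non-macrophage cells stayed at or below 289. The part of these transcripts in the results was not tested.

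The sum of the 10 genes was also higher in the diabetic library on day 3 in the monocyte-like, dendritic-like, neutrophil-like and T cell-like cells, though not every gene was. In monocyte-like cells, Cd163 was at 99.1 CPM in diabetic and 4.12 in control day 3 (ratio 24.1, 14.9 to 41.6), and the sum at 819 and 381. In dendritic-like cells Cd163 was at 91.0 and 8.54 (ratio 10.7, 6.96 to 17.1), and in T cell-like cells at 19.4 and 0, from 16 and 0 UMIs, where 3 UMIs would have been 2.38 CPM. In neutrophil-like cells Cd163 had a ratio of 23.7 (11.3 to 59.6), while Retnla was lower in the diabetic library, with 42 against 85 UMIs (ratio 0.336, 0.227 to 0.492), and the interval for Fcna included 1 (0.895, 0.473 to 1.72). For Cd163, the level in T cell-like cells, which should lack it, was thus also higher in the diabetic library. The sum in T cell-like cells was at 318.8 against 109.2 CPM (ratio 2.919, 2.366 to 3.613), beside a ratio of 1.866 in macrophage-like cells. Mrc1 had a ratio of 2.665 in T cell-like and 1.275 in macrophage-like cells. The part of free RNA in the levels of these classes and of macrophage-like cells was not tested. On day 5 the sum was lower in the diabetic library in dendritic-like (236.5 against 556.9 CPM), neutrophil-like (107.1 against 1701) and T cell-like cells (70.88 against 809.1). The neutrophil-like control level includes the cell with most of the Retnla UMIs of its class. Cd209d was also read at a high level in dendritic-like cells. In the dendritic-like cluster led by Cd209a it stood at 120, 193.5, 89.7 and 119 CPM in the diabetic and at 122, 61.6, 69.7 and 78.03 in the control group, whereas it was at 0 to 24.8 in the dendritic-like cluster led by Fscn1. In dendritic-like cells as a whole its level exceeded that of macrophage-like cells in 7 of the 8 libraries, all but control day 1 (89.9 against 110 CPM). For Cd209b this was so in 2 of the 8, diabetic day 5 (3.75 against 3.21 CPM, from 16 and 5 UMIs) and control day 7 (2.06 against 0.884, from 5 and 17), and for the other 8 genes in none.

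Summed over all cells of a library, where fewer macrophages and less RNA per macrophage cannot be told apart, the 10 genes stood at 548, 986, 317 and 1427 CPM in the diabetic group and at 674, 536, 1917 and 1541 in the control group. The ratio was 1.84 (1.80 to 1.88) on day 3, close to the 1.87 within macrophage-like cells, which made up 11.39% and 11.05% of the cells kept in the diabetic and control libraries of that day. On day 5 it was 0.165 (0.161 to 0.169), further from 1 than the 0.530 within macrophage-like cells, which made up 4.375% and 43.39% of cells. On day 5 every gene was lower over all cells of the diabetic library, from 0.648 for Cd209d to 0.0158 for Retnla.

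Whether the groups differed over the days that did not choose the genes was tested with edgeR's quasi-likelihood test on days 1, 5 and 7, with day as a factor, so that the 3 days served as the replicates and the p-values measure the spread between these libraries. In macrophage-like cells none of the 10 genes had an adjusted p under 0.05, while 2 of 10520 genes were higher (0.019%) and 2 lower (0.019%). At an unadjusted p under 0.05 there were 3 of the 10 and 702 genes in all, and DESeq2 called Cbr2 lower and 33 genes in all. Cbr2 was -0.58 on the log2 scale, diabetic minus control (SE 0.13, edgeR adjusted p = 0.260), lower in the diabetic library on 3 of 3 days. Cd209f was -1.11 (SE 0.31, edgeR adjusted p = 0.410), also lower on 3 of 3 days. Cd163 was 0.55 (SE 0.29, edgeR adjusted p = 0.782), higher on 2 of 3 days. The median over the 10 genes was -0.43 and over all genes -0.01. Without day 7, Cd209f, Fcna and Retnla passed the threshold as lower, and without day 5, Cd163 did as higher. The share of all genes that passed with a day left out is not given here, so nothing is read from those calls. With all 3 days and no filter on low counts, Cd209f, Cbr2, Fcna and Retnla passed as lower. More genes of the whole table passed with no filter too, and their number stands in the section on how the results depend on the processing.

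Over all cells, none of the 10 genes and none of 13646 genes passed in either direction (0.0%), with 4 of the 10 and 1538 genes at an unadjusted p under 0.05 in edgeR and with Cd209f, Cbr2 and 147 genes in all called by DESeq2. The estimates were -2.40 for Cd209f (SE 0.63, edgeR adjusted p = 0.436), -1.98 for Folr2 (SE 0.67, edgeR adjusted p = 0.436) and -1.55 for Cbr2 (SE 0.34, edgeR adjusted p = 0.436). The median was -1.22 over the 10 genes and -0.003 over all genes, and Cd209d, at 0.41, was the only one of the 10 with an estimate above 0.

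Change over the days of healing was tested as a slope per day over the 8 libraries with the group as a factor. Both day 3 libraries, which helped to choose the genes, are in this fit, so the values of the 10 genes in it are descriptions, and those without day 3 stand beside them. In macrophage-like cells none of the 10 passed, while 0.531% of 10367 genes rose and 0.0675% fell. At an unadjusted p under 0.05 there were 4 of the 10, and DESeq2 called Cbr2 lower. The number of all genes at that unadjusted p is not given for this slope or for that over all cells, so nothing is read from these counts. The DESeq2 calls over all genes stand in the section on how the results depend on the processing. Lyve1 had a slope of -0.49 per day (SE 0.12, edgeR adjusted p = 0.0974) and Cbr2 -0.22 (SE 0.053, edgeR adjusted p = 0.0876). Of the 10 estimates 9 were below 0, Retnla being the exception at 0.26 (SE 0.17, edgeR adjusted p = 0.636). Without both day 3 libraries, Lyve1 (slope -0.55, edgeR adjusted p = 0.0123) and Cbr2 (-0.24, edgeR adjusted p = 0.0172) passed as lower, and 9 of the 10 estimates were again below 0. The share of all genes that passed in that fit is not given here, so the calls of Lyve1 and Cbr2 cannot be set against it. Without the control day 3 library alone, Lyve1, Cd209d and Cbr2 passed as lower. That fit kept diabetic day 3, which helped to choose the genes, so these calls are descriptions too. The number of all genes called in it stands in the section on how the results depend on the processing. Over all cells none of the 10 passed, while 3.46% of 13332 genes rose and 6.88% fell, with 2 of the 10 at an unadjusted p under 0.05 in edgeR and Folr2 called higher by DESeq2. There all 10 estimates were above 0, with the largest at 0.51 for Retnla (SE 0.21, edgeR adjusted p = 0.132), 0.42 for Fcna and 0.37 for Folr2. The median slope was 0.12 over the 10 genes and 0.02 over all genes. Without day 3 none of the 10 passed over all cells, and all 10 estimates were above 0. With library sizes in place of TMM scaling, the Retnla slope was 0.59 (edgeR adjusted p = 0.0710) and none of the 10 passed. That scaling turned the split over all genes from 461 rising and 917 falling (33.5% of calls rising) to 1900 rising and 483 falling (79.7%), with a median slope of 0.09. Calls over all cells rested on the first and last days, since 0 genes passed without the day 1 libraries and 1 without those of day 7. The slopes within macrophage-like cells and over all cells thus had opposite signs for 9 of the 10 genes. The share of macrophage-like cells went from 1.387% and 1.813% on day 1 to 25.67% and 49.17% on day 7. Within macrophage-like cells the mix of the 2 clusters also differed between day 7 and the other days. The part of either in the slopes was not tested.

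**Figure D5:**
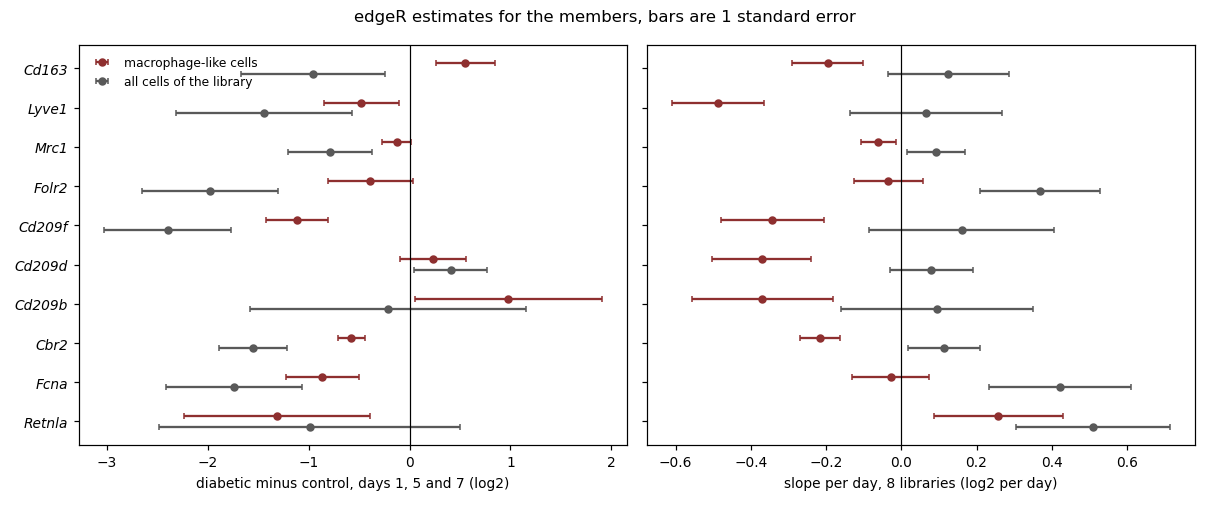
Estimates by edgeR (log2) with 1 standard error for the group difference over days 1, 5 and 7 (left) and for the slope per day over 8 libraries (right), in macrophage-like cells (dark red) and in all cells (grey). No gene passed the adjusted threshold, and the slopes of 9 genes lie below 0 in macrophage-like cells and above 0 over all cells.

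Other genes of the resident programme were described from lists. Of 16 other resident macrophage genes, 5 were at least 2-fold higher in the macrophage-like cells of diabetic day 3 (Timd4, Vsig4, Ccl8 and C4b among them) and none lower, with a median log2 ratio of 0.66, beside 4.39% higher and 2.95% lower over all genes. On day 5 none was higher and 4 were lower (Timd4, Vsig4, Ccl24 and Cd5l), with a median of -0.56, beside 5.27% and 7.51%. On day 7, 3 were higher and 1 was lower, with a median of 0.008 (3.66% and 3.34% of all genes), and on day 1, of 13 that could be compared, Ccl8 was higher and Gas6 lower (6.1% and 6.75%). Ccl8, a chemokine of resident macrophages, was at 903 and 289 CPM, and the complement gene C4b at 176 and 46.6. Selenop was at 979 and 562, while Igf1 was at 88.5 and 93.7 and Stab1, a scavenger receptor of resident cells, at 273 and 389. In edgeR none of the 16 passed in the group tests or in the slope within macrophage-like cells, and over all cells Ccl8 (slope 0.61, SE 0.14, adjusted p = 0.0335) and Igf1 (0.81, SE 0.10, adjusted p = 0.0239) rose with day. Of all 13332 genes in the slope over all cells, 3.46% rose and 6.88% fell.

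Among 10 scavenger receptors outside the set, 8 could be compared on day 3 and only Colec12 was 2-fold higher, at 22.8 and 2.83 CPM, beside 4.39% of all genes. Cd68 was at 1949 and 1970.0, Msr1 at 448 and 459 and Cd36 at 334 and 312, and the median log2 ratio of the list was -0.02. On days 1 and 5 only Olr1 of 8 was 2-fold higher (6.1% and 5.27% of all genes) and none was lower, and on day 7 only Stab2 of 9 was 2-fold lower (3.34%) and none was higher. Msr1, the class A scavenger receptor, fell with day both in macrophage-like cells (slope -0.17, SE 0.032, edgeR adjusted p = 0.0308) and over all cells (-0.28, SE 0.063, edgeR adjusted p = 0.0328), and Olr1 fell over all cells (-0.38, SE 0.076, edgeR adjusted p = 0.0292). Of all genes, 0.0675% fell in macrophage-like cells and 6.88% over all cells.

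Of 14 family relatives, 10 could be compared on day 3 and 6 were at least 2-fold higher, namely Cd209a, Cd209c, Cd209e, Cd209g, Clec10a and Retnlg, beside 4.39% of all genes; none was lower. On day 5, of 9, Cd209c and Retnlg were higher and Cd209g lower (median log2 ratio -0.10, beside 5.27% and 7.51% of all genes), and on day 7, of 11, Cd209a, Cd209e and Mgl2 were higher and Mrc2 lower (0.43, beside 3.66% and 3.34%). On day 1, of 5, Clec10a was higher and Cd209g lower (6.1% and 6.75%). Cd209e, the neighbour of Cd209d, was at 16.5 and 1.18 CPM on day 3 and at 17.4 and 1.04 on day 7, and Cd209a at 54.7 and 8.95 on day 3. Cd209g, a further lectin of the family, was at 14.9 and 0.707. Over all cells Cd209e (slope 0.49, SE 0.12, edgeR adjusted p = 0.0374) and Mrc2 (0.88, SE 0.20, edgeR adjusted p = 0.0335) rose with day and Retnlg, a neutrophil gene, fell (-1.01, SE 0.14, edgeR adjusted p = 0.0239). Beside them, 3.46% of all genes rose and 6.88% fell.

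Of 10 genes of the IL-4 and IL-13 response, Chil3 and Ccl17 were at least 2-fold higher and Pparg and Socs1 at least 2-fold lower in diabetic day 3, beside 4.39% and 2.95% of all genes. On day 5 none was higher and Ccl17 lower (5.27% and 7.51% of all genes), and on day 7, 3 were higher, Chil3 and Ccl17 among them, and none lower (3.66% and 3.34%). Chil3 was at 611 and 135 CPM. Over all cells Pparg rose with day (slope 0.23, SE 0.036, edgeR adjusted p = 0.0239) and Chil3 fell (-0.74, SE 0.14, edgeR adjusted p = 0.0249), beside 3.46% and 6.88% of all genes. Of 5 genes of recruited monocytes, Ccr2 was 2-fold lower in diabetic day 3 (2.95% of all genes), at 273 and 654, and Fn1 was at 395 and 777. On day 5 Ly6c2 and Vcan were 2-fold higher (5.27%), and on days 1 and 7 none of the 5 was 2-fold higher or lower. Ly6c2 (slope -0.48, SE 0.12, edgeR adjusted p = 0.0388) and Vcan (-0.55, SE 0.12, edgeR adjusted p = 0.0335) fell with day over all cells, beside 6.88% of all genes. No gene of these 4 lists passed in either group test.

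Across the 8 libraries the levels of the genes in macrophage-like cells were correlated with one another to different degrees, on log2 (CPM + 10); the libraries differ in depth and in the mix of the 2 clusters, so the values are descriptions. Lyve1 and Cbr2 had a Pearson r of 0.94, Folr2 and Fcna 0.93, Lyve1 and Cd209b 0.90 and Cd163 and Cd209b 0.90. The lowest r was that of Retnla with Cd209d, at 0.18, and Cd163 with Folr2 had 0.23. Among 3241 genes with a mean of at least 50 CPM, those most like the mean of the 10 were Surf4 (r = 0.96), Ednrb (0.95), Cndp2 (0.94), Lman2 (0.94) and Dcaf13 (0.93). The closest to single genes were Dtx2, Eps8 and Samd9l to Cd163 (0.97, 0.95 and 0.94), Zranb2, Morf4l1 and Tcea1 to Lyve1 (0.96 each), Csnk1a1, Srp72 and Cd81 to Mrc1 (0.94, 0.94 and 0.93) and Plk2, Riok3 and Caprin1 to Cd209d (0.95, 0.95 and 0.94). For Retnla the highest were Bub3, Ttc1 and Oxct1 (0.86, 0.86 and 0.84), the lowest maximum of the 10.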

How the data were processed

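The authors deposited tables of raw counts (UMIs, whole numbers) with genes in rows and barcodes in columns, not normalized and made before any filter on cells; per the paper's methods and the submitters' processing notes, reads were trimmed with fastp 0.20.1, barcodes and UMIs were assigned with UMI-tools, and reads were mapped with STAR to the mouse genome of Ensembl (GRCm38 by the release the methods name, while the processing notes name mm9; the tables hold gene symbols and no coordinates). The methods name BD Rhapsody and the design text 10X Genomics as the platform. The 10 genes and all gene lists were chosen with earlier results of these data known.

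As in the methods, cells needed over 200 genes and a mitochondrial share of UMIs under 20%, and mitochondrial genes were dropped. Counts were scaled to 10000 per cell in scanpy 1.11.5 (Python 3.11.15), a scale chosen here, and total UMIs were regressed out before clustering; the methods also regressed the mitochondrial share, which was not done here. The 2000 most variable genes without the 10 described, 10 principal components, 30 neighbours and Leiden resolution 0.8 gave 19 clusters, named "X-like" where their fixed markers were highest, and 1 shallow cluster of 3267 cells stayed unnamed. Scrublet called 0 to 38 doublets a library, too few for the caller to have worked, and none was removed. Names of barcodes were running numbers, so shared barcodes could not be counted; no 2 libraries held a cell with identical counts.

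Levels are CPM over the summed cells, with exact Poisson intervals, and ratios have exact conditional intervals, which cover counting error only. Each group and day is 1 library of 5 pooled mice, so p-values measure the spread between these libraries. For shares of cells, each cell was thinned to 1000 UMIs. The UMIs summed per library were tested in edgeR 4.0.16 (R 4.3.3; quasi-likelihood, TMM, filterByExpr, Benjamini-Hochberg over all genes, threshold 0.05), with DESeq2 1.42.0 as an alternative, after the code was tested on simulated data. The group tests left out day 3, which chose the genes. In the simulated data 200 genes were changed by 2 on the log2 scale between the groups, with a fixed spread not taken from these libraries. The group test recovered 130 of them (65%) in macrophage-like cells and 187 (93.5%) over all cells. A gene that did not pass in macrophage-like cells was therefore not shown to be unchanged. Named were the 10 genes and the genes of the fixed lists with the highest levels or past the threshold. By Pearson r of log2(CPM + 10) in macrophage-like cells, the 5 genes most like the 10 together were named. So were the 3 most like each of Cd163, Lyve1, Mrc1, Cd209d and Retnla, all among genes with a mean of at least 50 CPM. Alternatives were other resolutions, cell filters, cell naming, scaling, low-count filters, and left-out days and libraries. Gene positions are from GENCODE vM21 and promoters from RefSeq, both GRCm38. The values of some genes of the fixed lists are not reported here.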

Additional observations from a re-analysis of the deposited data

Results flagged for a closer look

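For 8 of the 10 genes and their sum, the ratio of diabetic to control CPM in macrophage-like cells lay on one side of 1 on day 3 and on the other on day 5, with both counting intervals clear of 1. On day 3 and day 5 in turn, the ratio was 9.134 and 0.744 for Cd163, 5.799 and 0.2084 for Lyve1, and 1.275 and 0.6794 for Mrc1. It was 3.608 and 0.3882 for Cd209f, 13.63 and 0.1734 for Cd209b, and 1.735 and 0.5522 for Cbr2. It was 2.378 and 0.2276 for Fcna, 3.01 and 0.02227 for Retnla, and 1.866 and 0.5299 for the sum of the 10 genes. With 1 library for each group and day the difference between the days was not tested, and the day 3 ratios chose the genes. The share of all genes with ratios on opposite sides of 1 on these days is not given here, so nothing is read from the count of 8. From day 3 to day 5 the level of the sum went from 1432 to 2884 CPM in the control libraries and from 2671 to 1528 in the diabetic libraries. The control day 5 library was the one with the highest share of barcodes removed (28.64%) and the highest median of UMIs per cell (8234); the part of this in the day 5 ratios was not tested.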

How the results depend on the processing

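In macrophage-like cells the ratio of diabetic to control summed CPM stayed above 1 on days 3 and 7 and below 1 on day 5 under each of 13 settings, while the day 1 ratio of 0.9145, from 66 and 80 cells, changed side. It was 1.046 at resolution 1.6, 1.271 with cells named singly, 1.016 after clustering without the Scrublet calls and 1.172 in cells of at least 500 genes, and 0.8236 at resolution 0.4, 0.8533 with unnamed cells included, 0.7864 with each cell weighted equally and 0.7477 as UMIs per cell. The day 3 ratio of 1.866 was 2.746 at resolution 0.4, 1.682 with cells named singly, 1.979 with unnamed cells, 2.126 with equal weights and 3.281 without Mrc1. The day 5 ratio of 0.5299 was 0.3618 at resolution 0.4, 0.4603 at 1.6, 0.4453 with cells named singly, 0.5979 from 500 genes, 0.6151 with osteoclast-like cells, 0.5083 with unnamed cells, 0.4924 with equal weights, 0.3997 per cell and 0.3653 without Mrc1. The day 7 ratio of 1.283 was 1.234 at resolution 1.6, 1.148 with cells named singly, 1.322 without Scrublet calls, 1.315 from 500 genes, 1.33 with osteoclast-like cells, 1.134 per cell and 1.498 without Mrc1. The share of the UMIs in macrophage-like cells (65.04%) was 50.01% at resolution 0.4, 69.2% at 1.6, 58.22% with cells named singly, 66.25% without Scrublet calls, 65.34% from 500 genes, 66.55% with osteoclast-like cells, 69.15% with unnamed cells and 65.96% without the highest 5% of doublet scores. The cause of these shifts was not tested. Between 6 and 9 of the 10 genes were at least 2-fold higher on day 3 over 12 settings.

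In the group test in macrophage-like cells, 0 of the 10 genes passed in edgeR, 1 in DESeq2 (5 had no adjusted p there), 4 with no filter on low counts (Cd209f, Cbr2, Fcna and Retnla, lower), 1 at resolution 0.4 (Cd209f, lower), and 0 to 3 with a day left out. Over all cells 2 passed in DESeq2 and 0 with a day left out. For the slope, in macrophage-like cells 1 passed in DESeq2 and 3 with no filter (Lyve1, Cd209d and Cbr2, lower), and 0 to 3 with a day or library left out; over all cells 1 passed in DESeq2 and 0 to 2 with a day or library left out (Retnla without day 5, Folr2 and Fcna without the diabetic day 3 library). Over all genes, edgeR and DESeq2 called 4 and 33 in the group test in macrophage-like cells and 0 and 147 over all cells, and 62 and 200 and 1378 and 2761 for the slopes. No filter gave 139 and 297 in macrophage-like cells for the group test and the slope, and leaving out single libraries gave 1 (diabetic day 7) to 154 (control day 3) for that slope. Counts over all genes with a whole day left out are not given for the tests in macrophage-like cells. Nor are they given for the group test at resolution 0.4. For the slope over all cells they are not given without day 5 or without the diabetic day 3 library. Nothing is read from the calls of the 10 genes in those fits. Both of these slope fits kept at least the control day 3 library, which helped to choose the genes.

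The group tests matched the groups by day, with day as a factor, and without that factor 0 genes passed. By replicate number, no paired analysis was possible because every library is numbered 1. The settings with unnamed cells, doublet scores, cells of at least 3000 UMIs, cells with a melanocyte gene UMI, single libraries left out and the sum without Mrc1 were chosen after seeing the data. The day 1 libraries hold 66 and 80 macrophage-like cells, and differences at their depth are the least certain.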
